A study of Mus musculus with 64 samples.

Results

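The transcription factors that drive the epithelial to mesenchymal transition (EMT) and the factors that oppose it were followed across 8 mouse pancreatic tumor lines. The 10 genes were chosen by name and not by a threshold on their values. They are the EMT factors Snai1, Snai2, Twist1, Twist2, Zeb1, Zeb2 and Prrx1, and the epithelial factors Grhl2, Ovol1 and Esrp1. All 10 were found among the 39017 genes of the deposited count table. The lines were 7 clones and the line KPC1. The study's results describe the clones as derived from 1 tumor of a KPC mouse, while its methods name tumors of KPC mice. The tests across lines below therefore cannot be taken to sample independent tumors. In KPC mice Pdx1-Cre activates tumor-driving alleles, mutant Trp53 among them, in the pancreas. Clones E, H and V form the study's group 1 and clones K, M, N and T its group 2, a classification by metabolism that does not include KPC1. Each line was grown alone (mono-culture) or together with fibroblasts for 48 h, after which the GFP-labeled tumor cells were sorted (coculture). The labels do not say whether mono-cultures went through the sorter. Both cultures were sequenced as 4 polyadenylated RNA libraries per line, which gave 64 libraries. The labels give a mixed C57BL/6 background and no ages, each line is 1 isolate, and nothing in the labels says that the libraries of a line came from separate cultures, so p-values within a line measure the spread between libraries, which may be technical.

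The EMT factors are DNA-binding repressors and activators that switch an epithelial cell toward a migratory, fibroblast-like state. Snai1, Snai2, Zeb1 and Zeb2 bind E-box sequences in the promoters of junction genes such as Cdh1 and silence them, while the bHLH factors Twist1 and Twist2 and the homeobox factor Prrx1 activate mesenchymal programs. Grhl2 and Ovol1 hold the epithelial state, in part by repressing Zeb genes, and Esrp1 imposes epithelial splicing. In pancreatic cancer these circuits are known for the spread of tumor cells along an epithelial to mesenchymal range.

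The libraries held between 11178721 and 21333683 counts (median 15648009), and the levels below are library-scaled counts (CPM) after TMM scaling. The lines kept ductal keratins, with Krt8 between 555 and 1510 CPM and Krt18 between 861 and 1730 CPM in the 32 mono-culture libraries, and the ductal factor Sox9 between 65.6 and 340 CPM. Among the defining epithelial markers, however, Epcam did not exceed 0.742 CPM and Cldn4 did not exceed 1.07 CPM in any mono-culture library. Fibroblast markers moved with the culture. The 22 fibroblast markers together reached 530 to 2290 CPM in mono-culture libraries and 1060 to 3480 CPM in coculture libraries. By the test over 8 lines given below, 16 of the 21 tested markers rose and 1 fell, against 26.8% and 25.2% of all genes. For the 7 defining markers the sums ran from 5.19 to 167 CPM in mono-culture and from 30.8 to 329 CPM in coculture. Lum and Thy1 had no count in any of the 32 mono-culture libraries, and Postn, Dcn and Fap had none in 29, 26 and 26 of them, whereas Pdgfra and Pdgfrb were detected in every one. In coculture Postn, Dcn, Fap and Thy1 were detected in all 32 libraries, with Postn at a median of 48.6 CPM, and Lum was at 0 in 12. The part of fibroblast RNA in the coculture results below was not tested.

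**Figure D1:**
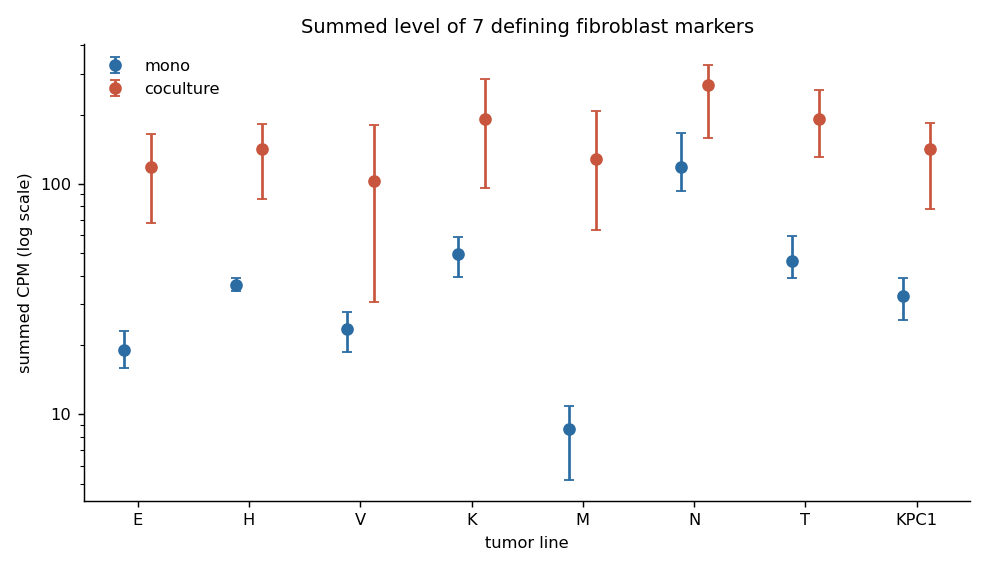
Summed CPM (log scale) of the 7 defining fibroblast markers (Pdgfra, Pdgfrb, Dcn, Lum, Thy1, Fap and Postn) in each tumor line; points are means of 4 libraries and bars reach from the lowest to the highest library. Means in coculture lay between 103 (V) and 268 CPM (N), and means in mono-culture between 8.66 (M) and 119 CPM (N).

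Per length, the median levels of the EMT factors over lines lay above that of Grhl2. By the deposited RPKM values (reads scaled by gene length and library size), the median line mean in mono-culture was 14.98 for Twist1, 10.4 for Twist2, 7.40 for Zeb1, 5.53 for Snai2, 4.89 for Zeb2, 2.91 for Snai1 and 2.54 for Prrx1, against 0.469 for Grhl2. Ovol1 and Esrp1, at 0.00241 and 0.00111, were at or near 0 in this table. Single lines differed from this order, with Prrx1 below Grhl2 in E (0.104 against 0.939 RPKM), M (0.346 against 0.768) and T (0.657 against 1.13), and Snai1 above Grhl2 by little in M (0.931 RPKM). Levels of 8 of the 9 testable genes differed among the 8 lines in mono-culture, Ovol1 being the exception (adjusted p = 0.458). This share stands against 95.1% of all 14134 genes tested, so a difference among lines was the rule in these data. The size of the difference separated the genes. The highest line mean exceeded the lowest by 74.8 times for Prrx1, 46.8 times for Snai1, 14.1 times for Grhl2, 12.8 times for Snai2 and 11.5 times for Twist2, but by 3.78 times for Twist1, 2.07 times for Zeb1 and 1.95 times for Zeb2.

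**Figure D2:**
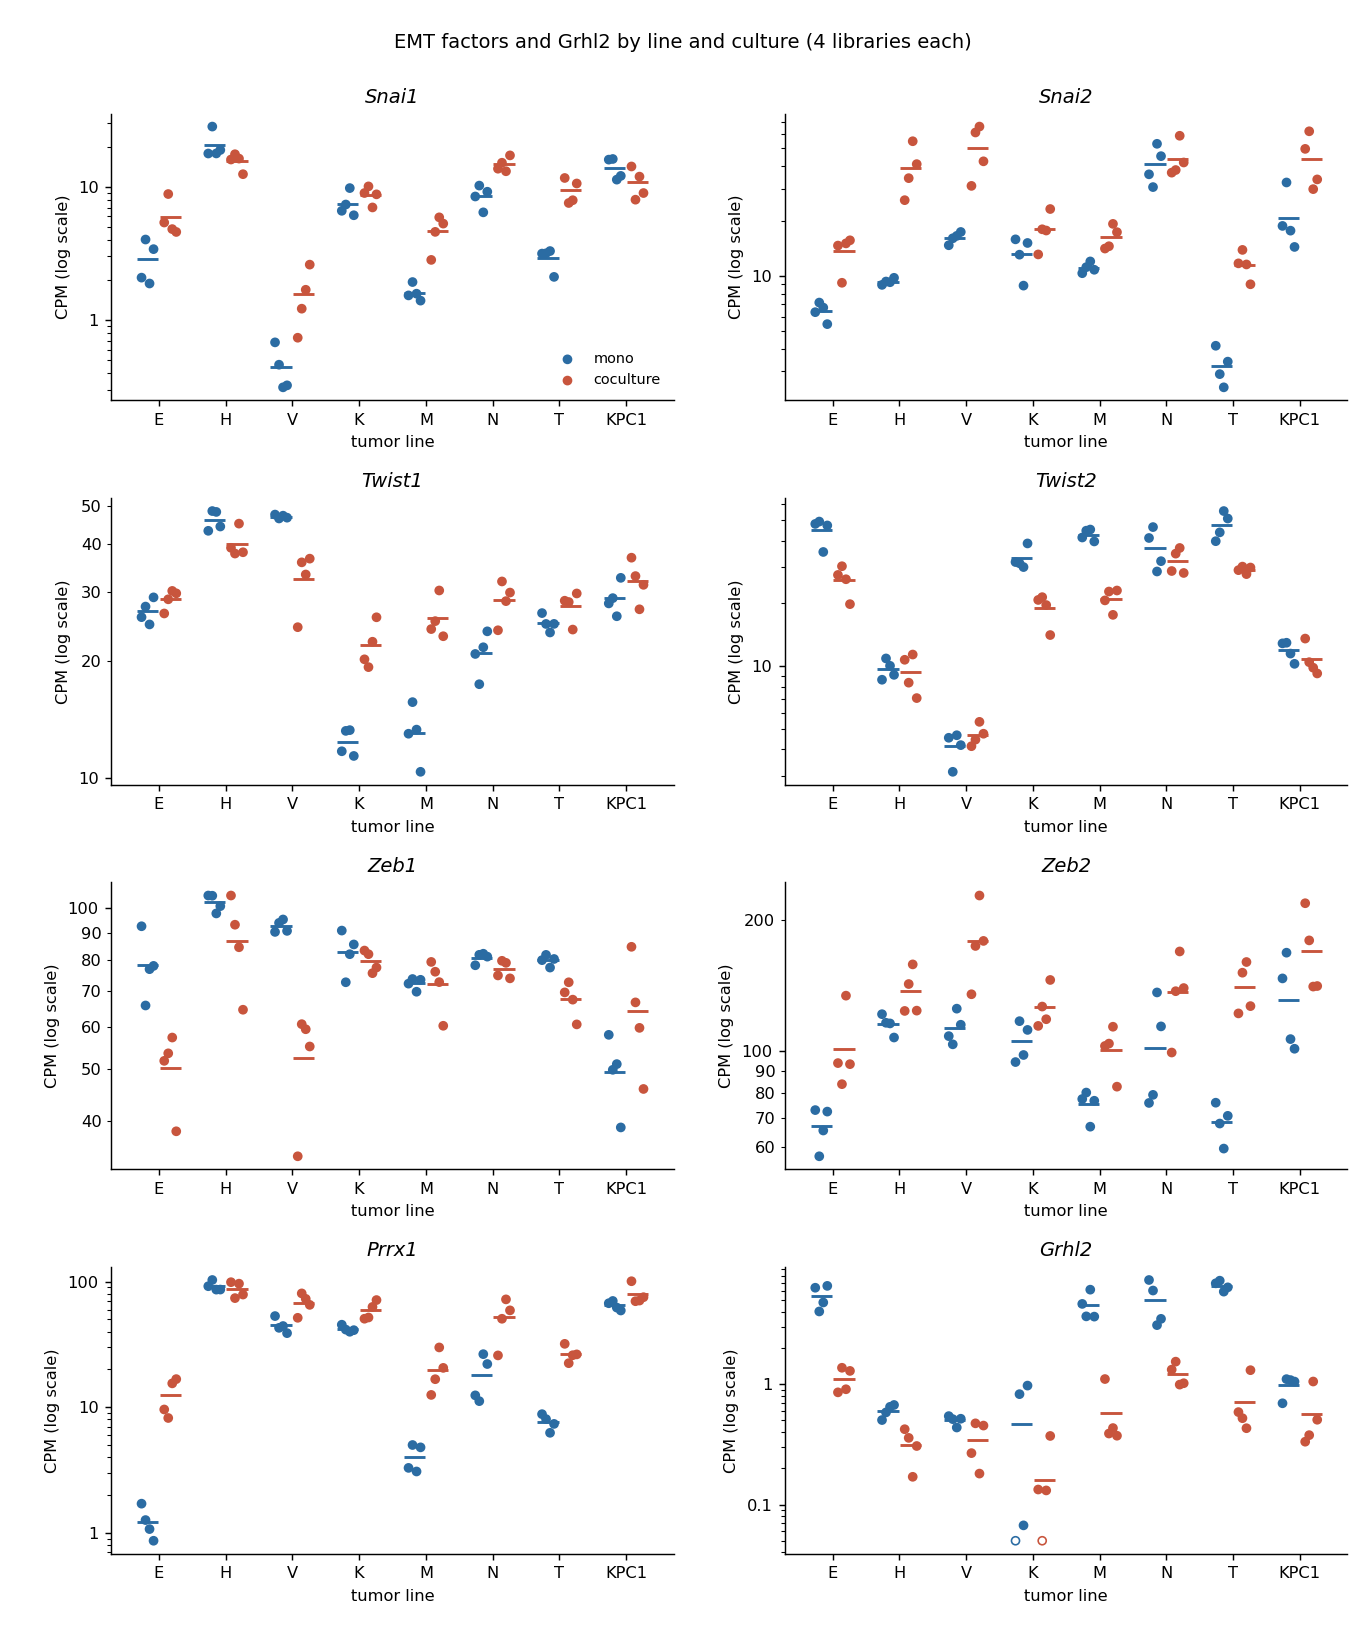
CPM (log scale) of 8 genes in each tumor line, with 1 point per library and a bar at the mean of 4 libraries, in mono-culture (blue) and coculture (red); open points are libraries at 0, drawn at the foot of the axis. Prrx1 spans 0.867 to 103 CPM over the mono-culture libraries and 8.22 to 101 CPM over the coculture libraries, and every coculture library lies at or below 1.54 CPM for Grhl2.

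Over the 8 lines, with the counts of each line and culture summed and the line as its own control, 4 of the 9 testable genes rose in coculture and 2 fell. Snai1, Snai2, Zeb2 and Prrx1 rose and Twist2 and Grhl2 fell, while Twist1, Zeb1 and Ovol1 did not pass the test. Over all 16246 genes tested, 26.8% rose and 25.2% fell at the same threshold (adjusted p under 0.1), with a median log2 fold change of 0.006. In bulk RNA a change in the share of cells that express a gene and a change in RNA per cell cannot be told apart. Within single lines, 39 of 72 tests passed, 27 of them higher and 12 lower in coculture. The share of all genes called in these comparisons was 61.3% in E, 44% in H, 61.5% in V, 20.5% in K, 38.9% in M, 37.4% in N, 62.2% in T and 39.2% in KPC1. Of the 9 testable genes, 7 were called in E, 1 in H, 6 in V, 2 in K, 8 in M, 5 in N, 7 in T and 3 in KPC1. The size of the response differed among lines for 8 of the 9 genes, against 71.3% of all genes.

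**Figure D3:**
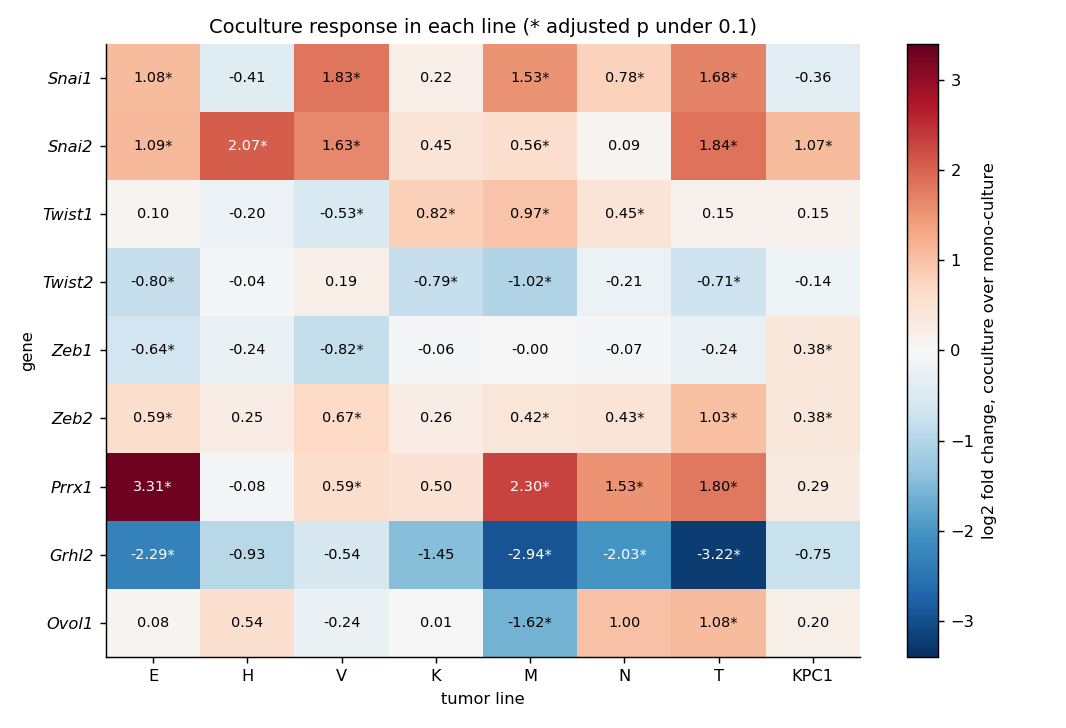
Log2 fold change of coculture over mono-culture for 9 genes (rows) in each of 8 tumor lines (columns), from fits over 64 libraries; an asterisk marks an adjusted p under 0.1. Grhl2 is below 0 in every line, and Snai2 and Zeb2 are above 0 in every line, with values from 0.09 to 2.07 and from 0.25 to 1.03.

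Snai1 (chromosome 2, 167538195 to 167542814 on GRCm38, the build of all positions below), a zinc finger repressor of Cdh1, was lowest in clone V and highest in clone H. The 4 mono-culture libraries of V measured 0.679, 0.461, 0.312 and 0.323 CPM, and those of H measured 17.8, 28.4, 17.8 and 18.9 CPM. Between these extremes lay M (mean 1.61 CPM), E (2.85), T (2.93), K (7.48), N (8.59) and KPC1 (13.9). The library ranges of M, E and T overlapped along this order, as did those of K and N, and the other neighbors stood apart. In coculture Snai1 rose over the 8 lines by a log2 fold change of 0.79 ± 0.28 (SE, adjusted p = 0.0410). Without clone T this difference did not pass the test (0.65, adjusted p = 0.105). Within lines it rose in E, V, M, N and T, by 0.78 (N) to 1.83 (V), and in each of these lines all 4 coculture libraries lay above all 4 mono-culture libraries. It was not called in K, H or KPC1. In K the change was 0.22 ± 0.23 (adjusted p = 0.593). In H the coculture libraries measured 16.1, 17.6, 16.3 and 12.46 CPM, all below the mono-culture range, with a log2 fold change of -0.41 ± 0.22 (adjusted p = 0.142), and in KPC1 the change was -0.36 ± 0.22 (adjusted p = 0.226).

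The promoter of Snai1 is shown because Snai1 protein is known to bind its own promoter through an E-box. The window holds the 250 bases before the RefSeq start (GRCm38.p6, chr2:167537945-167538194, plus strand), and capitals mark the E-box CAGGTG, here read as its reverse complement, which begins 126 bases before the start.
Snai1: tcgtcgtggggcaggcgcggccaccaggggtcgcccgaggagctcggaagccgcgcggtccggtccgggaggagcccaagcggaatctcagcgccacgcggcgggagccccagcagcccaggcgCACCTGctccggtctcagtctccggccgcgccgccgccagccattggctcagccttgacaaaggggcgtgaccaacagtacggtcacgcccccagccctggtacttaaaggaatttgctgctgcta
RefSeq windows of 5 of the 10 genes were searched (Snai1, Twist1, Twist2, Zeb2 with 4 starts, and Prrx1), and Zeb1 was not among these genes. Searched on both strands, CAGGTG stood in 1 of these 8 windows, that of Snai1, and in 17.2% of all 32851 windows of this length. A match is a description of the letters and not a measured binding site.

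Snai2 (chromosome 16, 14705852 to 14709385), the related zinc finger repressor, was highest in clone N and lowest in clone T in mono-culture. Its libraries measured 36.1, 30.7, 52.99 and 45.4 CPM in N and 4.15, 2.90, 2.46 and 3.396 CPM in T. The ranges of T, E and H stood apart from one another and from the next line, M, and from M upward (M, K, V, KPC1, N) each line overlapped the next. In coculture Snai2 rose over the 8 lines by 1.11 ± 0.22 (log2, SE, adjusted p = 0.00384) and was higher in the mean of every line. It rose in 6 single lines, from 0.56 ± 0.23 in M (not called without replicate 3 or 4) to 2.07 ± 0.24 in H (adjusted p = 2.54e-09). In H the libraries went from 8.94, 9.33, 9.24 and 9.78 CPM to 26.03, 34.4, 54.7 and 41.01 CPM, the largest change of Snai2 in any line. In N, already high, Snai2 measured 0.09 ± 0.22 (adjusted p = 0.794).

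Twist1 (chromosome 12, 33957671 to 33959829) and Twist2 (chromosome 1, 91801461 to 91848028) are closely related bHLH factors, and the pair of lines highest in Twist1 was the lowest in Twist2. Twist1 was highest in V (47.5, 46.4, 47.2 and 46.6 CPM) and H (43.1 to 48.5 CPM), and the ranges of both lines lay above all others. Twist2 was lowest in V (4.55, 3.13, 4.68 and 4.20 CPM), followed by H (8.63 to 10.9 CPM) and KPC1 (10.3 to 12.97 CPM). In the other lines, K, N, M, E and T, Twist2 ranged from 28.4 to 55.4 CPM and neighbors overlapped. Across the 8 line means in mono-culture, which share the scaling of the libraries, Pearson's r between Twist1 and Twist2 was -0.75 and Spearman's rho -0.57. Without K and M, the lines farthest from the median of Twist1, r was -0.87.

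In coculture the differences in Twist1 narrowed. Twist1 rose in the 3 lines with the lowest levels, K (0.82 ± 0.12), M (0.97 ± 0.12) and N (0.45 ± 0.11), and fell in V by 0.53 on the log2 scale (SE 0.11, adjusted p = 6.87e-05). In K the libraries went from 11.7, 13.2, 13.3 and 11.4 CPM to 20.2, 19.3, 22.4 and 25.9 CPM. In V they went from a range of 46.4 to 47.5 CPM to 24.4, 35.8, 33.3 and 36.6 CPM. The ratio of the highest to the lowest line mean was 3.78 in mono-culture and 1.82 in coculture. Over the 8 lines the change was 0.25 ± 0.15 (adjusted p = 0.201), and without clone V it passed the test (0.35, adjusted p = 0.0837).

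Twist2 fell over the 8 lines by 0.42 (log2, SE 0.14, adjusted p = 0.0370). In the larger of 2 numbering series in the library names it did not pass (-0.36, adjusted p = 0.105). That fit also left out K, whose mono-culture libraries are all in the other series. It fell in E, K, M and T, by 0.71 (T) to 1.02 (M), with all 4 coculture libraries below the mono-culture range in each. In M the libraries went from 41.4, 44.6, 45.2 and 39.6 CPM to 20.7, 22.8, 17.6 and 23.1 CPM. In V, where Twist2 was lowest, it measured 4.15, 4.46, 5.42 and 4.76 CPM in coculture (0.19 ± 0.18, adjusted p = 0.363).

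Zeb1 (chromosome 18, 5591860 to 5775467) and Zeb2 (chromosome 2, 44983632 to 45117395), large repressors of epithelial genes with zinc fingers and a homeodomain, were detected in every library. Zeb1 lay between 38.98 and 106 CPM in mono-culture. Only the ranges of KPC1 (38.98 to 58.01 CPM) and H (97.7 to 106 CPM) stood apart from their neighbors. Zeb2 lay between 57.1 and 168 CPM, and each line overlapped the next from E, the lowest (73.0, 57.1, 65.5 and 72.4 CPM), to KPC1, the highest (147, 168, 106 and 101 CPM).

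Zeb2 rose over the 8 lines by 0.52 ± 0.09 (log2, SE, adjusted p = 0.00207) and in 6 of the 8 lines, with the largest value in T, from 75.9, 68.0, 59.5 and 70.8 CPM to 122, 151, 160 and 127 CPM (1.03 ± 0.16, adjusted p = 5.69e-07). The calls in M, N and KPC1, at 0.38 to 0.43, did not hold without replicate 2 or 3 in M, 2 in N, and 1 or 4 in KPC1. Zeb1 had a change of -0.20 ± 0.12 over the 8 lines (adjusted p = 0.192), and without KPC1 it passed the test (-0.28, adjusted p = 0.0586). Within lines it fell in V by 0.82 (SE 0.13, adjusted p = 9.63e-07) and in E by 0.64 (SE 0.13, adjusted p = 6.23e-05), and it rose in KPC1 (0.38 ± 0.13, adjusted p = 0.0268, and 0.122 without replicate 2). In V, Zeb1 went from 90.2, 93.8, 95.2 and 90.6 CPM to 34.4, 60.7, 59.4 and 55.2 CPM, while Zeb2 went from 108, 103, 125 and 115 CPM to 135, 174, 227 and 179 CPM. Zeb1 therefore fell and Zeb2 rose in V, and the same held in E, where Zeb2 rose by 0.59 ± 0.16. The Zeb2 gene is overlapped on the opposite strand by Zeb2os, among others. Annotated genes on both strands also overlap Zeb1, Twist2 and Prrx1. The response of Zeb1 differed among lines (adjusted p = 1.03e-05). The difference for Zeb2 (adjusted p = 0.0450) did not pass without replicate 2, 3 or 4 (adjusted p = 0.132 to 0.268).

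Prrx1 (chromosome 1, 163245119 to 163313710), a homeobox factor of mesenchyme, had the widest range among lines. In mono-culture it measured 1.71, 1.27, 1.07 and 0.867 CPM in E, 3.30, 5.01, 3.09 and 4.80 CPM in M, and 8.82, 8.06, 6.27 and 7.38 CPM in T. It measured 12.4, 11.2, 26.5 and 22.1 CPM in N, 45.4, 41.5, 39.9 and 41.1 CPM in K, and 53.2, 42.9, 44.4 and 38.9 CPM in V. The highest levels were in KPC1 (67.3, 70.2, 62.2 and 58.96 CPM) and H (92.0, 103, 86.4 and 86.5 CPM). K and V overlapped, and the other 6 pairs of neighbors in this order did not. In coculture Prrx1 rose over the 8 lines by 1.24 ± 0.34 (log2, SE, adjusted p = 0.0160). The rise was 3.31 ± 0.30 in E (adjusted p = 9.74e-13), 2.30 ± 0.26 in M, 1.80 ± 0.24 in T, 1.53 ± 0.23 in N and 0.59 ± 0.22 in V. The call in V did not hold without replicate 2 (adjusted p = 0.106). In K it was 0.50 ± 0.22 (adjusted p = 0.124), in KPC1 0.29 ± 0.22 (adjusted p = 0.315) and in H -0.08 ± 0.22 (adjusted p = 0.808). In E the coculture libraries measured 9.61, 8.22, 15.5 and 16.8 CPM, so that the line mean went from 1.23 to 12.53 CPM, and in H it went from 92.0 to 87.1 CPM. The order of the lines by mean was the same in both cultures, while the ratio of highest to lowest went from 74.8 to 6.95, and in coculture every line overlapped the next.

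The level of fibroblast marker RNA also varied among coculture libraries of a line. Over the 32 coculture libraries, as deviations of log2 CPM from the mean of each line, Pearson's r with the sum of the 7 defining markers was 0.70 for Twist1, 0.64 for Prrx1, 0.51 for Snai1, 0.34 for Zeb2 and 0.33 for Snai2. It was 0.13 for Grhl2, 0.03 for Zeb1, 0.01 for Ovol1 and -0.18 for Twist2. The points share library depth and scaling, and these values are a description. The sum holds Pdgfra and Pdgfrb, which the tumor lines also expressed alone. In N the sum averaged 119 CPM in mono-culture and 268 CPM in coculture. Dcn, Lum, Thy1, Fap and Postn together averaged 0.0542 and 97.6 CPM there. The r values therefore do not tell fibroblast RNA from Pdgfra and Pdgfrb RNA of the tumor cells.

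Grhl2 (chromosome 15, 37233036 to 37363569), a grainyhead factor that activates junction genes and opposes Zeb1, was high in some lines and low in the others. In mono-culture it measured 6.34, 4.02, 4.78 and 6.57 CPM in E, 4.65, 3.66, 6.11 and 3.65 CPM in M, 7.35, 6.01, 3.10 and 3.49 CPM in N, and 6.89, 7.25, 5.88 and 6.38 CPM in T. These 4 lines overlapped along the order. It measured 0.504, 0.583, 0.649 and 0.672 CPM in H, 0.543, 0.513, 0.437 and 0.516 CPM in V, and 0.694, 1.10, 1.08 and 1.05 CPM in KPC1. In K the 4 libraries measured 0, 0.827, 0.0671 and 0.974 CPM, so 2 of them were at or near the lower limit, and 3 counts, the limit taken for a count of 0, correspond to 0.141 to 0.268 CPM in these libraries. No library of H, V, K or KPC1 reached the lowest library of E, M, N or T.

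In coculture Grhl2 fell over the 8 lines by 1.83 on the log2 scale (SE 0.33, adjusted p = 0.00289), the largest change among the 9 genes. Within lines it fell in T by 3.22 (SE 0.39, adjusted p = 1.11e-09), and it also fell in M (-2.94 ± 0.41), E (-2.29 ± 0.37) and N (-2.03 ± 0.37). In T the libraries went to 0.587, 0.522, 0.431 and 1.31 CPM, in M to 1.10, 0.389, 0.432 and 0.373 CPM, in E to 0.856, 1.37, 0.908 and 1.29 CPM, and in N to 1.32, 1.54, 0.992 and 1.02 CPM. All of these lay below the mono-culture range of the same line. In the lines that started low the values were -0.93 ± 0.52 in H, -0.54 ± 0.53 in V, -1.45 ± 0.63 in K and -0.75 ± 0.45 in KPC1, none of which passed the test. The ranges did not overlap in H (0.17 to 0.423 CPM in coculture) and overlapped in V, K and KPC1. At 1859 counts in all 64 libraries, Grhl2 was sequenced thinly. Gm16136, Gm16137 and Gm16138 overlap it on the opposite strand, and its counts may hold reads of these genes. Leaving out 1 replicate at a time, the change in K lay between -1.79 (without replicate 1, adjusted p = 0.0691) and -0.64 (without replicate 2).

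**Figure D4:**
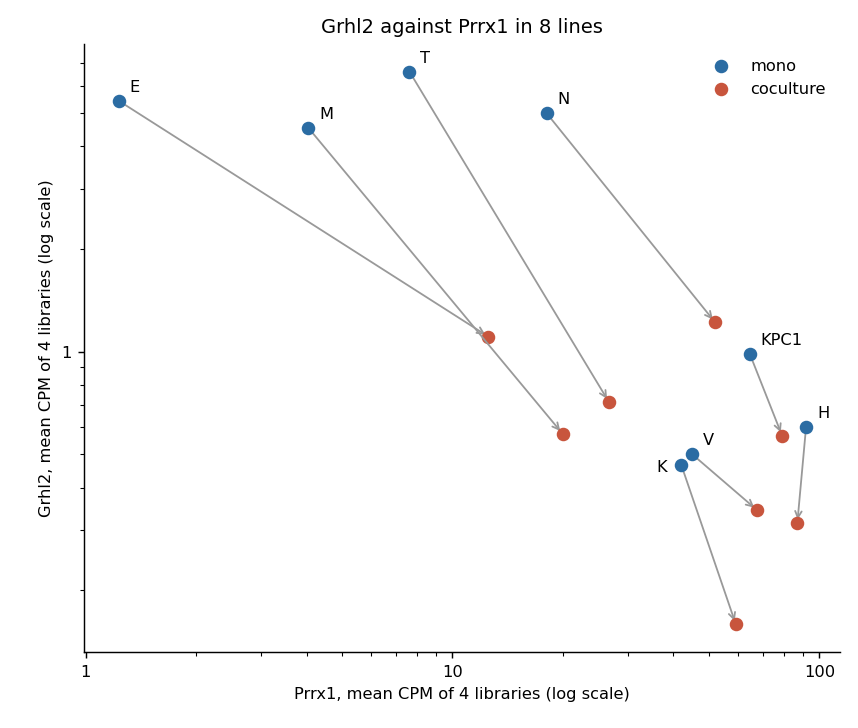
Mean CPM of 4 libraries for Grhl2 against Prrx1 (both log scales) in each of 8 lines; arrows lead from mono-culture (blue, labeled) to coculture (red). E, M, T and N lie at the upper left in mono-culture, with Grhl2 between 4.52 and 6.603 CPM and Prrx1 between 1.23 and 18.1 CPM, and move down and to the right.

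Set side by side in mono-culture, the 4 lines highest in Grhl2 were the 4 lowest in Prrx1. E, M, N and T had mean Prrx1 of 1.23, 4.05, 18.1 and 7.63 CPM, and H, V, K and KPC1 had 92.0, 44.9, 42.01 and 64.7 CPM. The same 4 lines had the 4 highest means of Twist2, from 36.98 to 47.5 CPM, followed by K at 32.8 CPM. They also had the 4 lowest means of Zeb2, from 67.0 to 101 CPM, though the ranges of N and K overlapped. Zeb1, the factor that Grhl2 is known to oppose, did not follow this order, with 72.3 to 80.8 CPM in these 4 lines against 102, 92.5, 82.8 and 49.5 CPM in H, V, K and KPC1. Across the 8 line means in mono-culture Zeb2 and Prrx1 had a Pearson's r of 0.93 and a Spearman's rho of 0.95, and r was 0.94 without E and T, the lines farthest from the median of Zeb2. In coculture the same pair had an r of 0.79 and a rho of 0.67, and r was 0.30 without E and M. The line means share the scaling of the libraries, and 72 such values over pairs of genes and cultures were computed.

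Esrp1 (chromosome 4, 11331933 to 11386783), an epithelial splicing regulator, was at or under the limit of detection. It had 9 counts in all 64 libraries and none in 56 of them, and its highest count in a library was 2. It was not tested, and no level can be compared among lines. Its relative Esrp2 could be tested over the 8 lines and measured 0.23 ± 0.20 on the log2 scale (adjusted p = 0.377). Ovol1, a zinc finger repressor of Zeb1, lay between 0.0537 and 1.35 CPM in mono-cultures, with a coculture range of 0.0603 to 1.49 CPM, and all neighboring lines overlapped. Its change over the 8 lines was 0.16 ± 0.28 (adjusted p = 0.662). In M it fell by 1.62 (SE 0.62, adjusted p = 0.0388) and in T it rose (1.08 ± 0.56, adjusted p = 0.0956), and the call in M was lost without replicate 1 or 3 and that in T without replicate 2, 3 or 4. The RPKM table listed Ovol1 at 0 in 52 of the 64 libraries although its count was above 0 in all of them, and 2 annotated genes, Gm31166 and AC126029.1, overlap it on the opposite strand (chromosome 19, 5549136 to 5560646, GRCm38). How reads were assigned to strands is not given in the sources used here, so the Ovol1 counts may hold reads of these genes.

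Epithelial factors beside the 10 genes were taken from a list of 20 partners. Of the 16 tested epithelial partners, 6 fell and 1 rose, against 25.2% and 26.8% of all genes, with a median log2 fold change of -0.36 against 0.006 for all genes. The grainyhead factor Grhl3 fell by 2.59 (SE 0.45, adjusted p = 0.00239), and its line means went from 38.5 to 1.70 CPM in T, from 14.1 to 1.05 CPM in E, from 8.2 to 1.72 CPM in M and from 7.53 to 2.06 CPM in N. These were also the 4 lines highest in Grhl2. The remaining lines had mono-culture means of Grhl3 of at most 1.26 CPM (K). Ehf, an ETS factor of epithelia, fell by 1.83 (SE 0.36, adjusted p = 0.00396). Pdx1, the pancreatic identity factor, fell by 1.23 (SE 0.25, adjusted p = 0.00449), and its mean in T went from 200.0 to 29.3 CPM. Grhl3, Ehf and Pdx1 were each lower in coculture in 8 of 8 line means. Klf5, a factor of ductal epithelium, ranged from 20.6 (H) to 149 CPM (T) among lines and measured -0.21 ± 0.27 (adjusted p = 0.552).

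The upstream window of Grhl3 was chosen for display with both its fall in coculture and its motif known. It holds CAGGTG, the E-box that Snai and Zeb proteins are known to recognize. Windows for 12 of the 20 partners were in the RefSeq table, and that of Grhl2 was not. The window holds the 250 bases before the start (GRCm38.p6, chr4:135573633-135573882, minus strand), and capitals mark CAGGTG, again as its reverse complement, beginning 19 bases before the start.
Grhl3: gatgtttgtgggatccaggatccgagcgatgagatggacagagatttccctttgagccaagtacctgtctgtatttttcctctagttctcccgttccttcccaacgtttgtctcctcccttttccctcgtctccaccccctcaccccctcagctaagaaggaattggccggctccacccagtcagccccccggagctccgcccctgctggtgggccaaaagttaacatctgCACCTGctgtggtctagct
CAGGTG stood in 6 of the 17 partner windows, against the 17.2% given above for all windows. Besides Grhl3, Elf3 (-0.75, adjusted p = 0.0189) and Pdx1 had it and fell. Foxa1 (-0.11, adjusted p = 0.592) and Foxa3 (0.73, adjusted p = 0.182) had it and were not called, and Elf5 had it and was not tested. A part of the motif in any change was not tested.

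**Figure D5:**
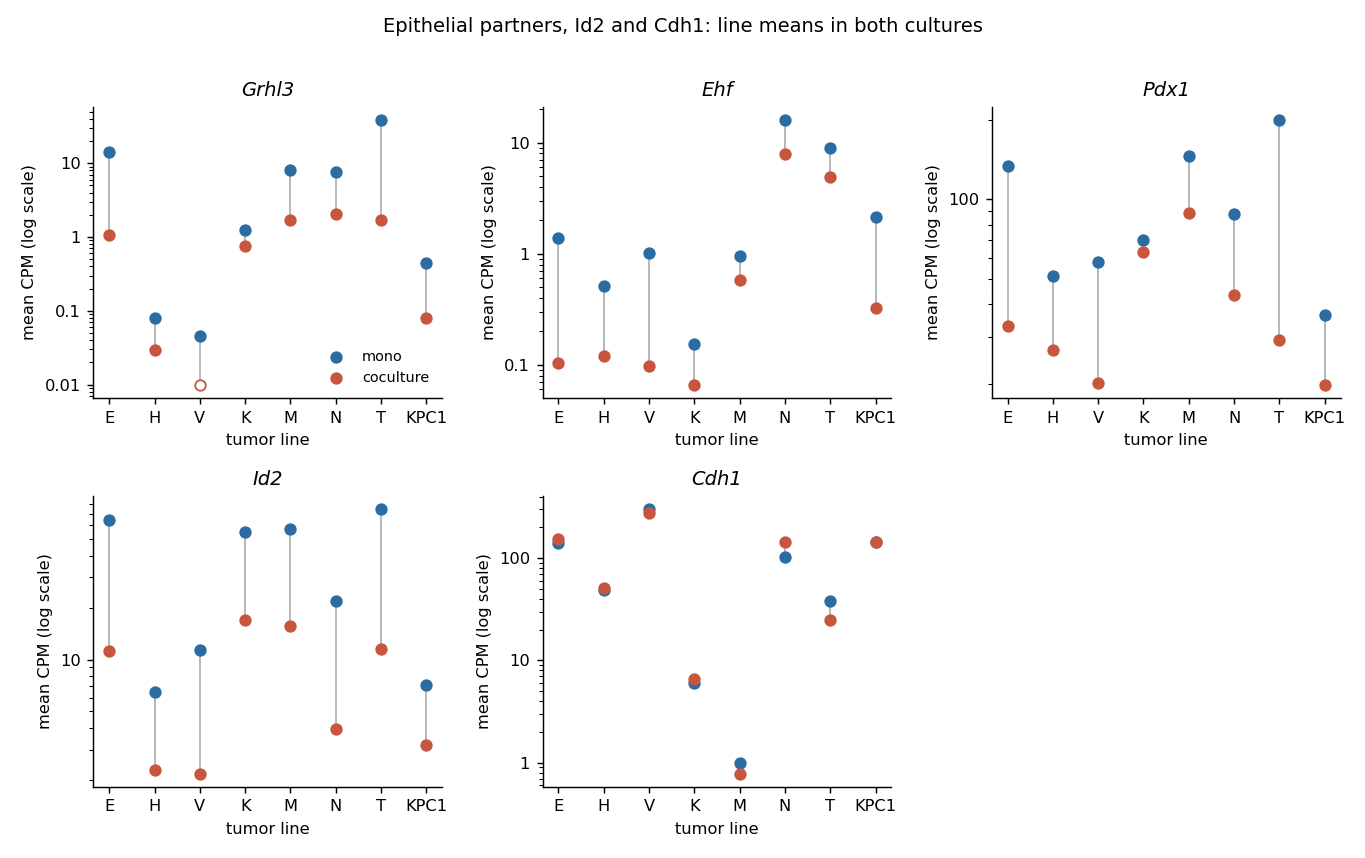
Mean CPM of 4 libraries (log scale) for Grhl3, Ehf, Pdx1, Id2 and Cdh1 in each of 8 lines, in mono-culture (blue) and coculture (red); the open point is a line mean of 0, drawn at the foot of the axis. The red point lies below the blue one in all 8 lines for the first 4 genes, and for Cdh1 the means span 0.998 to 304 CPM among lines in mono-culture with a coculture change of 0.00 ± 0.11.

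Junction and keratin genes are the classical targets of these factors. Of 36 tested, 16 fell and 5 rose in coculture, where 25.2% and 26.8% of all genes did, with a median of -0.32. Llgl2, a polarity gene, fell by 1.52 (SE 0.18, adjusted p = 0.000630), the plakin Ppl by 1.34 (SE 0.23, adjusted p = 0.00251) and the ductal keratin Krt19 by 0.68 (SE 0.12, adjusted p = 0.00246), each in 8 of 8 lines. Cdh3, encoding P-cadherin, rose by 2.89 (SE 0.45, adjusted p = 0.00165) but stayed at line means of at most 0.406 CPM. Cdh1, encoding E-cadherin and the classical target of the Snai and Zeb factors, ranged widely among lines. Its mean was 0.998 CPM in M, 6.01 in K, 37.8 in T, 48.5 in H, 102 in N, 141 in E, 145 in KPC1 and 304 in V, and it did not pass the test in coculture (0.00 ± 0.11, adjusted p = 0.986). V, the line with the most Cdh1, had the least Snai1 and Twist2, and its Twist1 range lay within that of H. The orders of Snai1 and Cdh1 were not mirror images. M, with the least Cdh1, had the lowest mean of Snai1 after V (1.61 CPM). H, highest in Snai1, had 48.5 CPM of Cdh1. M, the line with the least Cdh1, was among the 4 lines high in Grhl2, so that the orders of Cdh1 and Grhl2 differed. The tight junction gene Ocln (0.360 CPM in H to 42.5 in M), the desmosomal cadherin Dsc2 (0.0135 in H to 23.5 in T) and the protease inhibitor Spint2 (1.16 in H to 75.3 in T) also ranged widely. Dsc2 fell in coculture by 1.07 (SE 0.43, adjusted p = 0.0651), whereas Ocln (-0.07 ± 0.14) and Spint2 (-0.05 ± 0.07) did not pass the test.

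Of the 45 mesenchymal genes tested, 19 rose and 2 fell, against 26.8% and 25.2% of all genes, with a median of 0.35. The genes with the smallest p-values, Lox and Loxl1 (collagen crosslinking enzymes), Cdh11 (a cadherin of fibroblasts) and Acta2 (smooth muscle actin), were near 0 in most mono-culture lines. Lox line means were at most 0.267 CPM in mono-culture and 27.1 to 147 CPM in coculture, and Cdh11 means were at most 0.778 and 12.3 to 22.5 CPM. Loxl1 means were at most 0.283 CPM in mono-culture and 7.63 to 19.2 CPM in coculture, and Acta2 means at most 1.13 and 5.70 to 26.9 CPM. All 4 are also high in fibroblasts, and they rose in the same libraries as the fibroblast markers above. The genes that ranged most among lines in mono-culture were Mmp2, a gelatinase, at 76.2 CPM in H and 57.6 in V against at most 4.14 in the other lines, Wnt5a, a signaling ligand, at 70.4 CPM in V and 29.1 in H, Nt5e, an ectonucleotidase, at 46.9 CPM in H and 0.233 in M, and Ncam1, an adhesion molecule, at 29.3 CPM in V and 19.6 in H. In coculture Mmp2 rose over the 8 lines by 3.56 (SE 1.22, adjusted p = 0.0389), although its means in H and V were lower than in mono-culture, at 67.0 and 32.4 CPM. Ncam1 rose by 2.58 (SE 0.78, adjusted p = 0.0237) and Nt5e by 0.89 (SE 0.38, adjusted p = 0.0779), and Wnt5a measured 0.35 ± 0.44 (adjusted p = 0.547). Where line sums were at or near 0 in mono-culture, as for Mmp2, Ncam1 and Cdh3, the fitted fold change depends on the prior count and is no bound.

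Among the other EMT factors, 11 of 20 fell and 5 rose, beside 25.2% and 26.8% of all genes, with a median of -0.19. The 11 include the bHLH inhibitors Id1 (-1.32), Id2 and Id3 (-1.60), so this count mixes drivers of EMT with inhibitors. Id2, a dominant-negative bHLH partner that holds back Twist-type factors, fell by 2.03 (SE 0.18, adjusted p = 0.000117) in 8 of 8 lines, from 74.8 to 11.5 CPM in T and from 64.2 to 11.2 CPM in E. The forkhead factor Foxq1 fell by 1.42 (SE 0.22, adjusted p = 0.00172), also in 8 of 8 lines, and Foxc1 fell by 0.76 (SE 0.21, adjusted p = 0.0156). Hmga1, an architectural chromatin factor, rose by 0.59 (SE 0.07, adjusted p = 0.000632) in 8 of 8 lines. Lef1, a Wnt effector, was at 12.9 CPM in V and 6.61 in K and at most 0.812 elsewhere in mono-culture, and rose by 1.34 (SE 0.41, adjusted p = 0.0253). Tbx3 and Foxc2 were at 0 in most mono-culture lines and reached line means of 0.750 to 1.77 CPM and 0.329 to 1.42 CPM in coculture.

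Of 25 tested genes of TGF-beta signaling and other inducers, 14 fell and 3 rose, against 25.2% and 26.8% of all genes, with a median of -0.23. Beside TGF-beta, a classical inducer of Snai and Zeb genes, the list holds Bmp, Hgf, Met and Notch pathway genes. The ligand Tgfb1 fell by 0.57 (SE 0.10, adjusted p = 0.00292), the inhibitory Smad6 by 1.11 (SE 0.13, adjusted p = 0.000631) and the repressor Ski by 0.55 (SE 0.11, adjusted p = 0.00433), each in 8 of 8 lines, and the co-receptor Tgfbr3 fell by 0.85 (SE 0.18, adjusted p = 0.00562). Tgfb2 reached 152 CPM in K against 13.4 in V, and measured 0.04 ± 0.35 (adjusted p = 0.940). Bmp4 ranged from 44.9 (H) to 224 CPM (K) and measured 0.03 ± 0.11 (adjusted p = 0.817), and the Notch target Hey1 ranged from 0.0157 (H) to 3.10 CPM (K) and measured 0.86 ± 0.57 (adjusted p = 0.238). Hgf, a ligand that fibroblasts are known to make, had line means of at most 0.0466 CPM in mono-culture and 0.805 to 2.02 CPM in coculture.

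Of the 26 cofactors and stability regulators of these repressors, 6 rose and 4 fell, with a median of 0.03, and 26.8% and 25.2% of all genes did so. Ctbp1, a corepressor of Zeb proteins, fell by 0.59 (SE 0.11, adjusted p = 0.00272) and Ctdsp1, a phosphatase that stabilizes Snai1, by 0.71 (SE 0.10, adjusted p = 0.00133), both in 8 of 8 lines. Usp37, a deubiquitinase, rose by 0.34 (SE 0.06, adjusted p = 0.00338), and the kinase Prkd1 rose (adjusted p = 0.00760), with line means of 0 to 1.58 CPM in mono-culture and 0.625 to 1.92 CPM in coculture. Wtip, a LIM protein, ranged from 0 (M) to 27.5 CPM (K), and the kinase Pak1 from 13.4 (E) to 101 CPM (V), and neither passed the test in coculture (0.65 ± 0.43 and 0.31 ± 0.23).

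Of the 12 tested splicing regulators, 4 fell and 2 rose, with a median of -0.16, next to 25.2% and 26.8% of all genes. Celf2, an RNA-binding regulator of alternative exons, was at 0.763 CPM in N, 2.15 in T and 2.81 in E and at 44.2 CPM or more in the other lines, and rose by 1.10 (SE 0.32, adjusted p = 0.0187). Mbnl1, a muscleblind splicing factor, fell by 0.33 (SE 0.06, adjusted p = 0.00340), Sfpq by 0.42 (SE 0.13, adjusted p = 0.0232) and Rbfox2 by 0.22 (SE 0.07, adjusted p = 0.0333). Rbm47 (-0.19 ± 0.09, adjusted p = 0.104) and Mbnl2 (-0.10 ± 0.06, adjusted p = 0.210) did not pass the test.

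The study's groups were compared last. With 1 sum per clone, 3 against 4, edgeR's quasi-likelihood test called none of the 9 testable genes in mono-culture, in coculture or in the difference of the response, and 1, 0 and 2 of them had an unadjusted p under 0.05. DESeq2 called none in these 3 comparisons either. Over all genes the shares called were 0% of 14829, 0.00679% of 14737 and 0.00618% of 16172. In mono-culture 766 of all genes had an unadjusted p under 0.05, and DESeq2 called 157. Twist1 came nearest in mono-culture. Its line means were 26.9, 46.02 and 46.9 CPM in E, H and V and 12.4, 13.1, 20.9 and 24.99 CPM in K, M, N and T. The log2 fold change was 1.16 ± 0.33 (unadjusted p = 0.00891, adjusted p = 0.888). In coculture it was 0.40 ± 0.19 (adjusted p = 0.585). The response in group 1 minus that in group 2 was -0.78 ± 0.24 for Twist1 (adjusted p = 0.657) and -0.46 ± 0.15 for Zeb1 (adjusted p = 0.659). Prrx1 measured 1.23 CPM in E and 92.0 CPM in H within group 1. The log2 fold changes between groups were 1.35 ± 1.21 for Prrx1 and -0.89 ± 1.10 for Grhl2 in mono-culture. Twist2 (-1.02 ± 0.73, adjusted p = 0.888) was called when clone E was left out (-2.54, adjusted p = 0.0774). Its mean was 44.98 CPM in E against 9.67 in H and 4.14 in V.

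The genes most like each factor over the 16 sums of line and culture were given by the Pearson's r of log2 CPM, as a description over 16246 genes. Twist2 had the closest matches, Vstm5 (0.98), Myo7b (0.97) and Cyp3a13 (0.97), and the lowest r with Maged2 (-0.96). Prrx1 was closest to Ckap4 (0.96), Ctsw (0.95) and Serinc2 (0.94), and farthest from Adamtsl5 (-0.92). Zeb2 was closest to Sin3a (0.95), Ercc2 (0.94) and Fbxl12 (0.94), and farthest from Fam122a (-0.96). Grhl2 was closest to Cant1, Oas1e and Sgsh (each 0.93), and farthest from Basp1 (-0.92). Twist1 was closest to Slc25a43 (0.92), Ddit4l (0.91) and Limd2 (0.91), and farthest from Gm16310 (-0.93). For Snai2 the genes were Ubash3b (0.90), Chrm4 (0.90) and Nlrc5 (0.87), and Gm26711 (-0.90). For Snai1 they were Ube2q2 (0.87), Gm26687 (0.87) and Nmnat2 (0.86), and Baz1b (-0.85). For Zeb1 they were Tead3 (0.85), Ap1g1 (0.84) and Gm26964 (0.81), and Surf2 (-0.84). Ovol1 had no gene above 1700123M08Rik (0.77), followed by Gm13199 (0.67) and Gm14439 (0.66), with Mipep lowest (-0.77). The sums of a line share its clone, and both cultures of a line enter each value.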

How the data were processed

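RNA was sequenced from 8 mouse pancreatic tumor lines in mono-culture and after 48 h of coculture, with 4 libraries each, as strand-specific polyadenylated libraries. The submitters' processing notes name featureCounts, edgeR and the build mm10, and the aligner, the annotation and the strand setting of the counting are not given in the sources used here. The authors deposited raw counts for 39017 genes and RPKM values for 49585 genes. The RPKM values normalize for gene length and were used only to compare levels between genes and as an alternative.

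Counts were scaled by TMM and filtered by filterByExpr in edgeR 4.0.16 (R 4.3.3), and tested with its quasi-likelihood test, Benjamini-Hochberg adjustment over all genes and a threshold of 0.1. Adjusted p-values in the text are from this test, two-sided. The SE beside a fold change was derived from this test, as the absolute log2 fold change over the square root of F. It is not a separately fitted error. The response over 8 lines and the group comparisons used counts summed per line and culture, with the line as covariate where cultures were compared. The response within a line, and its difference among lines, used all 64 libraries. Scripts were tested on simulated data. Alternatives used DESeq2 1.42.0, limma 3.58.1 on log2 RPKM with pseudocounts of 1 and 0.1, RLE scaling, no filter, a threshold of 0.05, left-out lines or replicates, replicate blocks, libraries as replicates, and the sample sheets. A sheet is the numbering series in the library names (43 and 21 libraries), and no source says what it marks. The fits on the larger sheet alone left out clone K, which has no mono-culture library in it.

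The 10 genes and all gene lists were chosen with earlier results of these data known. Named from each list were up to 4 called genes with the smallest p over 8 lines and up to 4 with the widest range among lines in mono-culture, and for each of the 10 genes that could be tested (all but Esrp1) the 3 genes with the highest and the 1 with the lowest correlation. Esrp2, outside this rule, was named after its values were seen. The limit for a count of 0 was 3 counts and covers counting error only. Promoter windows are from RefSeq (GRCm38.p6) and gene positions from GENCODE M21, which held 37607 of the gene identifiers. Every column of both tables was used, and some items are not reported here.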

Additional observations from a re-analysis of the deposited data

Results flagged for a closer look

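In 6 of 144 groups of 4 libraries (4.17%), 1 library stood far from the other 3 by Dixon's criterion, which chance meets in about 1 in 20 groups. These were the Snai1 library at 28.4 CPM in H in mono-culture (the others at 17.8 to 18.9), the Snai1 library at 2.108 CPM in T in mono-culture (3.15 to 3.30), and the Snai2 library at 9.182 CPM in E in coculture (14.7 to 15.7). The others were the Twist2 library at 35.28 CPM in E in mono-culture (47.3 to 49.3), the Grhl2 library at 0.6943 CPM in KPC1 in mono-culture (1.05 to 1.10) and the Grhl2 library at 1.104 CPM in M in coculture (0.373 to 0.432).

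The response to coculture differed among the 8 lines by edgeR's quasi-likelihood F test for 8 of the 9 testable genes. The adjusted p was 5.35e-08 for Snai1, 1.98e-06 for Snai2, 1.03e-10 for Twist1, 1.03e-05 for Twist2, 1.03e-05 for Zeb1, 0.045 for Zeb2, 4.76e-11 for Prrx1 and 0.000793 for Grhl2, against 71.3% of all genes called in the same test.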

How the results depend on the processing

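Over the alternatives, 39 calls within lines became 34 to 45, the 6 calls over the 8 lines became 5 to 8, and the 8 calls of a difference of response became 7 to 8. Of 1586 values of single genes, 650 kept a call of the report and 26 lost one, none of them with a changed direction. With the 4 libraries of a clone taken as replicates, which are not independent clones, the group comparison called 3 genes in mono-culture, 2 in coculture and 5 in the difference of response. Over all genes these fits called 3925 of 12347, 5148 of 12416 and 3941 of 13750. With 1 sum per clone, leaving out single replicates or lines in mono-culture gave 0 to 1. Adding the replicate block to the fits with libraries as replicates gave the same counts of 3, 2 and 5. Over all genes it gave 3956 of 13111, 5213 of 13026 and 4197 of 13888. A replicate block within lines gave 45 calls, adding Prrx1, Snai2 and Zeb2 in K, Zeb1 and Zeb2 in H, and Zeb1 in T and losing none. The labels do not say what a replicate number shares, and the numbers were not taken as pairs because not every correlation passed 0.1. Of 32 pairs of same-numbered libraries, 24 had a correlation of deviations over 0.1 (range -0.114 to 0.504) and in 22 the library correlated best with its own number, and in V, M and N, where all 4 pairs passed 0.1, the block changed no call.

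Direction changed only for values that were not called, and the cause was not tested. Zeb1 in M was 0.0061 with the replicate block. Snai1 between groups in mono-culture was -0.4351 and -0.0531 by limma on RPKM. The difference of response between groups for Ovol1 was -0.0169 by DESeq2, -0.0385 with libraries as replicates and -0.0833 with the replicate block. For Ovol1 it was also -0.0149 without a filter, -0.017 with RLE scaling and -0.3196 on the larger sample sheet without K. Leaving out replicates or lines, Ovol1 ranged from -0.2876 to 0.2604 in E, -0.3767 to 0.489 in K, -0.3478 to 0.7461 in KPC1, -0.8013 to 0.2335 in V and -0.0797 to 0.3854 over 8 lines, Prrx1 in H from -0.1546 to 0.059, Twist2 in H from -0.1558 to 0.0747, and Zeb1 in M from -0.054 to 0.0794. Between groups in coculture Grhl2 ranged from -0.9862 to 0.2861, Snai1 from -1.3078 to 0.2223 and Zeb2 from -0.071 to 0.3545, and in mono-culture Snai1 from -1.7042 to 1.1554 and Snai2 from -1.1146 to 0.2175. The difference of response ranged from -0.5346 to 0.3459 for Ovol1, -1.2431 to 0.324 for Prrx1, -0.6707 to 0.4269 for Snai1 and -0.1344 to 0.14 for Zeb2. Depth limits Grhl2 and Ovol1, at 1859 and 506 counts in all libraries, and leaves Esrp1 untestable.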
